A study of Mus musculus with 12 samples.

Results

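The genes of the EGF family were followed across RNA-seq libraries of Ocy454 cells, a mouse osteocyte line. The group holds 10 of the 37583 gene IDs counted. They are the ligand genes Ereg, Areg, Hbegf, Tgfa, Btc and Nrg1, the receptor genes Egfr, Erbb2 and Erbb3, and Errfi1, a feedback inhibitor of the receptors. They were chosen by family name and matched by Ensembl ID, after earlier results of these data were known. Which of those results led to the choice is not known. The response of control cells to fluid flow shear stress (FFSS) was taken as the basis. The FFSS differences of control cells are therefore given as a description, without p-values.

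The 12 libraries formed 4 groups of 3, and they differed in genotype and treatment. Control cells, which the labels call original, and DKO cells, labelled as deleted for HDAC4 and HDAC5, were either left static or exposed to FFSS for 3 h. The study says that the 3 h FFSS cells it compared with FAK deletion and a FAK inhibitor carried a lentivirus with a mock guide. It adds that cells set side by side were handled alike as to infection. The labels do not mention the virus, so they do not say whether the control cells here were infected. Any effect of infection not shared by both lines would be part of the genotype differences. Both targets belong to the class IIa histone deacetylases, which act as transcriptional co-repressors in the nucleus. All groups share the origin of the line, which came from long bones of mice carrying a temperature-sensitive T antigen and a Dmp1-GFP reporter, and which the study used as a single-cell subclone. Flow was produced by agitating the dishes on a mixing platform. Control and DKO libraries each came from a single line, so the deletion and the line that carries it cannot be told apart, and whether the DKO line is 1 clone is not given in the sources used here. The labels do not say whether replicates were separate cultures, so p-values measure only the spread between these samples, which may be technical. In bulk RNA, fewer cells of a type and less RNA per cell cannot be told apart.

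Between 17.6 and 19.2 M reads per library were assigned to genes, at which 3 counts, the floor used here, equal 0.146 to 0.178 CPM, the count scaled to the library total. Hdac4 had 458 to 550 counts in control static and 220 to 309 in DKO static libraries, and Hdac5 had 2421 to 2706 and 1461 to 1634. Under FFSS, Hdac4 had 597 to 860 counts in control and 214 to 250 in DKO libraries, while Hdac5 had 1457 to 1755 and 1553 to 1687. In CPM Hdac5 under FFSS was higher in every library labelled DKO (92.4 to 93.3) than in every control library (71.1 to 90.2), which goes against the label, so a level of the whole transcript does not check this deletion under FFSS. Both transcripts were still counted in DKO cells. The labelled cell type was checked with 8 osteocyte markers, whose summed level was 266 to 325 CPM in control static and 3881 to 3965 CPM in DKO static libraries, with 121 to 325 CPM in control and 3892 to 4317 CPM in DKO libraries under FFSS. Sost, which defines mature osteocytes, was at 1.48 to 12.4 CPM in control static and 2042 to 2097 CPM in DKO static libraries, Pdpn went the other way (27.6 to 29.3 and 4.999 to 5.28 CPM), as did Phospho1 (53.4 to 60.1 and 33.7 to 36.1 CPM), Mepe was at most at 0.211 CPM in any control library, and Fgf23 was at most at 0.0595 CPM in any library. FFSS replicate 1 of the control cells stood apart from replicates 2 and 3. Its counts differed from theirs with a chi-square per degree of freedom of 68.7 and 62.5, against at most 6.9 for any other pair of replicates. The share of reads outside annotated genes was 5.10% to 5.21% in control static, 5.87%, 9.19% and 10.04% in control FFSS replicates 1, 2 and 3, 7.07% to 7.14% in DKO static and 7.93% to 8.55% in DKO FFSS libraries. Differences that rest on replicate 1 are given with and without it.

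EGF family ligands are made as precursors anchored in the cell membrane and are released from the surface by proteases such as ADAM17. A released ligand binds a receptor tyrosine kinase of the ErbB family, the receptors pair, and signals pass through RAS and ERK to transcription. Epiregulin, heparin-binding EGF and betacellulin bind EGFR and ERBB4, amphiregulin and TGF-alpha bind EGFR, and neuregulin 1 binds ERBB3 and ERBB4. ERBB2 has no known ligand and serves as a partner of the others. In bone, EGFR signalling is known to favour the growth of osteoblast precursors and to hold back their maturation.

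Promoter sequence from RefSeq (build GRCm38.p6) was found for 6 of the 10 genes, namely Areg, Tgfa, Btc, Egfr, Erbb2 and Errfi1. Ereg, Hbegf, Nrg1 and Erbb3 had no entry. The 250 bases before the start were searched on both strands for motifs. These were the AP-1 site, spelled TGANTCA, and the cAMP response element CRE, spelled TGACGTCA. The TEAD site was searched as GGAATG and the TATA box as TATAAA. The CCAAT box was searched by its letters. The hypoxia response element was searched as GCGTG and in its other form, ACGTG. The CArG box and the MEF2 site were searched as well. Of the 32851 promoters in the table, 6.75% held AP-1, 1.55% CRE, 12.6% TEAD, 12.4% a TATA box, 33.8% CCAAT, 38.6% a hypoxia response element, 1.47% a CArG box and 2.92% a MEF2 site. Errfi1 and Tgfa are shown because they had the highest levels per length among these genes in control static cells and differed in opposite directions under FFSS. Areg is shown because it shares a CRE with the second start site of Errfi1. Letters in capitals mark every match, read 5′ to 3′ on the strand of the gene.
Errfi1, second start site, chr4:150854820-150855069, plus strand: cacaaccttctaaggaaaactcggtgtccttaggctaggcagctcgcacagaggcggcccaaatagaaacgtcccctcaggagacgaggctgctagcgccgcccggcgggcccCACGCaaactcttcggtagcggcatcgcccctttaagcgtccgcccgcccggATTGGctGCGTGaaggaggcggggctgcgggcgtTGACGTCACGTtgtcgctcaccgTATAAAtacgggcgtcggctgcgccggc
Areg, chr5:91139349-91139598, plus strand: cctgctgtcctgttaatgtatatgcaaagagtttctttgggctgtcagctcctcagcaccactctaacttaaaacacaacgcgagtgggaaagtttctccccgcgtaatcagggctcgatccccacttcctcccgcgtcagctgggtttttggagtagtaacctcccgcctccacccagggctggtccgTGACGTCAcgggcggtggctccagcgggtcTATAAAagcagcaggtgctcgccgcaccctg
Tgfa, chr6:86194972-86195221, plus strand: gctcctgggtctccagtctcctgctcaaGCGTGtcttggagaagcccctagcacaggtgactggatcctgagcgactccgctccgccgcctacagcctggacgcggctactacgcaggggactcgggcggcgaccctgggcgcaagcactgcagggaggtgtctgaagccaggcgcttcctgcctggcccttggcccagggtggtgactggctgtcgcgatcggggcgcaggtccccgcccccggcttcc
In the Errfi1 sequence the CRE lies at −51 to −44 and the TATA box at −28 to −23 from the start, with CCAAT at −85 to −81 on the opposite strand and 3 hypoxia response elements, the last of which overlaps the CRE. In the Areg sequence the CRE lies at −61 to −54 and the TATA box at −31 to −26. The Tgfa sequence held 1 match, a hypoxia response element. The Egfr promoter held 0 matches, Btc held 2 hypoxia response elements, Erbb2 held TEAD and CCAAT, and the first start site of Errfi1 held TEAD. A match describes letters only, and none of these libraries measured binding.

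The order of expression was read per length, as CPM per kb of exon, with means ± SD of n = 3. The length was that of all annotated exons of a gene, merged (11326 bases for Egfr and 5210 for Erbb2). It can differ from that of the transcripts present, so orders and shares per length depend on it. In control static cells Errfi1 was highest at 36.5 ± 0.995, followed by Tgfa at 22.3 ± 1.36 and Erbb2 at 11.6 ± 0.765 CPM per kb. Nrg1 (5.75 ± 0.623), Hbegf (2.92 ± 0.141) and Egfr (1.65 ± 0.0873) came next, each without overlap with its neighbours. Btc (0.532 ± 0.0860) and Erbb3 (0.446 ± 0.0469) overlapped each other, as did Areg (0.146 ± 0.154) and Ereg (0.0890 ± 0.0260) at the bottom of the order. In DKO static cells Erbb2 (11.9 ± 0.516) stood above Tgfa (6.18 ± 0.878), Hbegf (2.16 ± 0.176) and Nrg1 (1.78 ± 0.195) overlapped, and Ereg (0.787 ± 0.0888) stood above Egfr (0.456 ± 0.0323). Btc (0.0262 ± 0.0227) was then lowest.

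**Figure D1:**
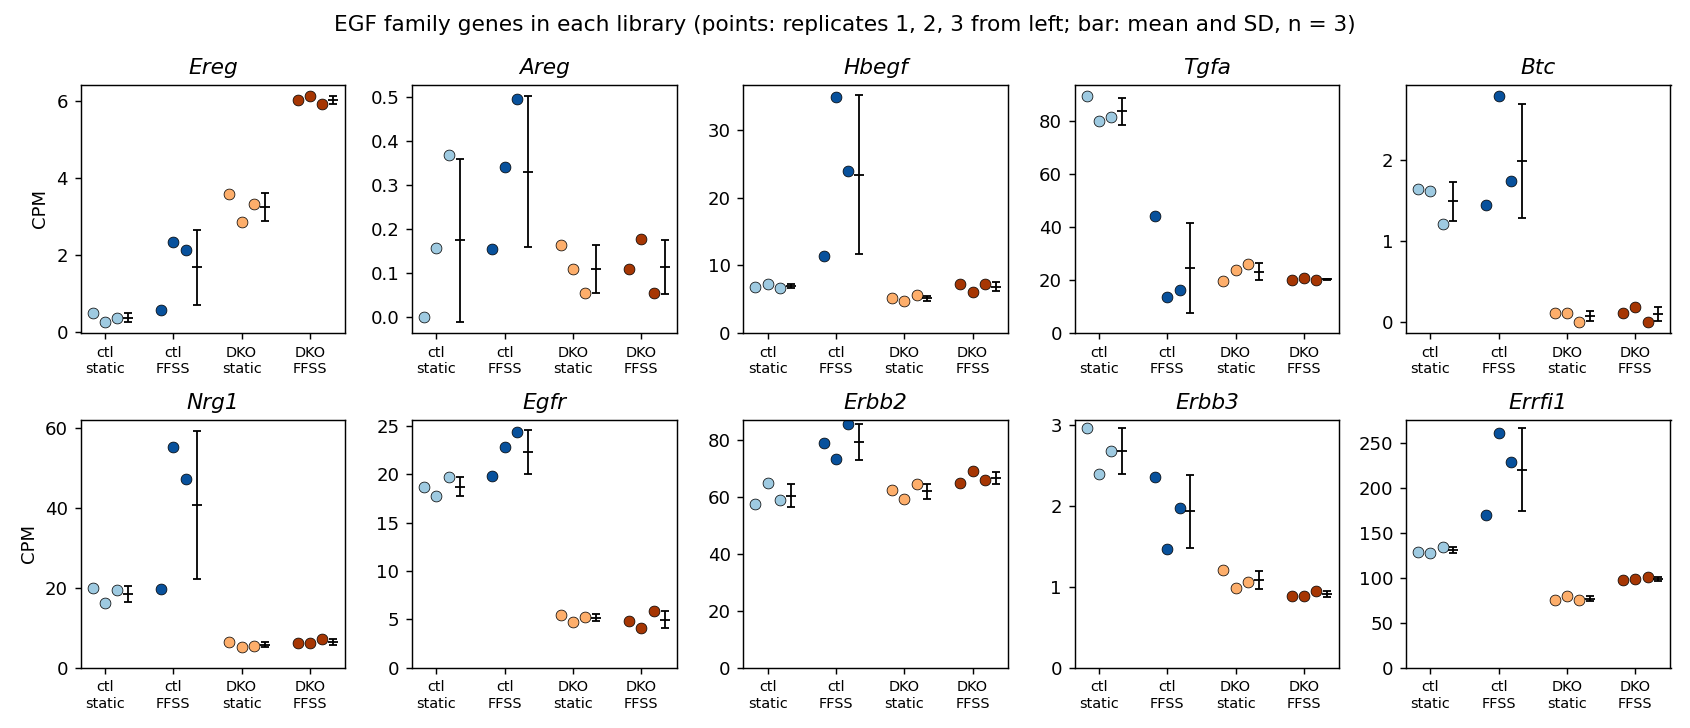
Level of each EGF family gene in CPM (vertical axes, 1 panel per gene, linear and with a scale of its own) in the 4 groups (horizontal axes), where each point is 1 library and each bar the mean of 3. Ereg was highest in DKO FFSS cells (6.03 CPM) and lowest in control static cells (0.368 CPM), and Tgfa, Hbegf and Nrg1 spread most in control FFSS cells.

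Ereg encodes epiregulin (ENSMUSG00000029377, chr5:91503643-91522675, plus strand, mm9, as are all gene positions here). In the order of the replicate numbers, as for every gene below, it had 9, 5 and 7 counts in static control cells, 11, 48 and 43 in control cells under FFSS, 65, 52 and 60 in static DKO cells and 109, 103 and 106 in DKO cells under FFSS. Every DKO library exceeded every control library, and in both genotypes the FFSS libraries lay above the static ones. The FFSS difference in control cells was 2.18 on the log2 scale (SE 0.46, edgeR).

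Hbegf encodes heparin-binding EGF (ENSMUSG00000024486, chr18:36664583-36675459, minus strand). It had 130, 140 and 126 counts in static control cells, 221, 714 and 484 in control cells under FFSS, 93, 86 and 100 in static DKO cells and 131, 102 and 130 in DKO cells under FFSS. Control FFSS libraries lay above all others, although replicate 1 was well below replicates 2 and 3. The log2 difference with FFSS in control cells was 1.76 (SE 0.32).

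Nrg1 encodes neuregulin 1 (ENSMUSG00000062991, chr8:32928500-33119581, minus strand). It had 376, 311 and 369 counts in static control cells, 384, 1131 and 954 in control cells under FFSS, 117, 96 and 98 in static DKO cells and 110, 103 and 130 in DKO cells under FFSS. On TMM-scaled library totals, control FFSS replicate 1, at 19.7 CPM, fell inside the control static range of 16.2 to 19.9 CPM, and without the TMM factors it lay just above that range. The log2 difference with FFSS in control cells was 1.14 (SE 0.30), and 100 of the gene's exon bases are shared with Gm17443, which had 715 counts over all libraries against 4179 for Nrg1.

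Tgfa encodes TGF-alpha (ENSMUSG00000029999, chr6:86145420-86225151, plus strand), and was the most abundant ligand transcript per length in control static cells. It had 1697, 1540 and 1552 counts in static control cells, 863, 280 and 325 in control cells under FFSS, 358, 434 and 472 in static DKO cells and 362, 347 and 361 in DKO cells under FFSS. It was the one ligand gene with a lower level under FFSS in control cells, by a log2 difference of −1.77 (SE 0.37), and control FFSS replicates 2 and 3 were below every DKO library. DKO static and DKO FFSS libraries overlapped.

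Btc encodes betacellulin (ENSMUSG00000082361, chr5:91786287-91831939, minus strand). It had 31, 31 and 23 counts in static control cells, 28, 57 and 35 in control cells under FFSS, 2, 2 and 0 in static DKO cells and 2, 3 and 0 in DKO cells under FFSS. All DKO libraries were at or under the floor of 3 counts, and the filter on genes with 0 counts removed Btc from the tests. Areg encodes amphiregulin (ENSMUSG00000029378, chr5:91568641-91577458, plus strand) and had between 0 and 10 counts in each library, so its values rest on few reads. Ereg, Areg and Btc lie within 328 kb of chromosome 5 with 1 other counted gene ID, which had 0 counts. Over this stretch the summed counts of Ereg were 21, 102, 177 and 318 in the order control static, control FFSS, DKO static, DKO FFSS, while those of Btc were 85, 120, 4 and 5.

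Among the receptors, Egfr (ENSMUSG00000020122, chr11:16652206-16818161, plus strand) had 354, 341 and 375 counts in static control cells, 387, 468 and 492 in control cells under FFSS, 100, 87 and 94 in static DKO cells and 88, 70 and 105 in DKO cells under FFSS. Every DKO library lay below every control library, and the log2 difference with FFSS in control cells was 0.26 (SE 0.11). Erbb2 (ENSMUSG00000062312, chr11:98273784-98299030, plus strand) was the receptor gene with the highest level, and its static libraries did not separate by genotype. It had 1087, 1248 and 1121 counts in static control cells, 1539, 1503 and 1732 in control cells under FFSS, 1136, 1079 and 1162 in static DKO cells and 1177, 1165 and 1177 in DKO cells under FFSS. Erbb3 (ENSMUSG00000018166, chr10:128004579-128026708, minus strand), whose product has little kinase activity of its own, had 56, 46 and 51 counts in static control cells, 46, 30 and 40 in control cells under FFSS, 22, 18 and 19 in static DKO cells and 16, 15 and 17 in DKO cells under FFSS.

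Errfi1 encodes MIG6, which binds active EGFR and ERBB2 and blocks their kinases (ENSMUSG00000028967, chr4:150228028-150243001, plus strand). It had 2445, 2456 and 2558 counts in static control cells, 3313, 5350 and 4619 in control cells under FFSS, 1364, 1455 and 1347 in static DKO cells and 1756, 1654 and 1796 in DKO cells under FFSS. FFSS libraries lay above static libraries in both genotypes, and DKO libraries below control libraries in both conditions. The log2 difference with FFSS in control cells was 0.75 (SE 0.11).

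In control cells under FFSS, the edgeR fit called 4 of the 9 tested EGF family genes at an adjusted p under 0.05 and more than 2-fold, which were Ereg, Hbegf and Nrg1 higher and Tgfa lower. Over all 14904 genes tested 5.93% were called, 3.96% higher and 1.97% lower. Because the choice of genes is taken to rest on this contrast, nothing is read from the count. Without the fold limit 6 passed, with Erbb2 (log2 difference 0.39, SE 0.07) and Errfi1 added, against 35.8% of all genes. Erbb3 (−0.47, SE 0.19), Egfr and Areg (0.90, SE 0.68) did not pass. The libraries of the 2 groups did not overlap for 7 genes, higher for Ereg, Hbegf, Egfr, Erbb2 and Errfi1 and lower for Tgfa and Erbb3, as for 41.3% of all genes. Relative to the mean of control static cells, replicates 1, 2 and 3 were at 1.53, 6.36 and 5.78 times for Ereg, 1.64, 5.03 and 3.46 times for Hbegf, 1.07, 2.98 and 2.55 times for Nrg1, and 0.529, 0.163 and 0.192 times for Tgfa. Replicate 1 moved least in all of them. Without it the log2 differences were 2.58 for Ereg, 2.08 for Hbegf, 1.47 for Nrg1, −2.50 for Tgfa and 0.91 for Errfi1, Egfr (0.33) and Erbb3 (−0.64) passed without reaching 2-fold, and 11.3% of all genes were called. The share of reads outside genes moved with these differences, being lowest in replicate 1 among the control FFSS libraries. With that share as a covariate 0 of the 9 genes were called, against 198 of the 14904 genes tested, and the log2 differences were 0.62 for Ereg, 0.62 for Hbegf and −0.07 for Nrg1. Tgfa (−0.68), Erbb2 (0.35) and Errfi1 (0.33) still passed without reaching 2-fold. Its part in the result was not tested.

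FFSS in DKO cells gave smaller differences. Ereg differed by 0.89 on the log2 scale (SE 0.28, adjusted p = 0.167 by edgeR), and its 3 FFSS libraries were at 1.85, 1.88 and 1.82 times the static mean. Errfi1 differed by 0.37 (SE 0.11, adjusted p = 0.169 by edgeR), with FFSS libraries at 1.27, 1.29 and 1.31 times the static mean. Hbegf (0.42, SE 0.36), Nrg1 (0.18, SE 0.38), Tgfa (−0.20, SE 0.39), Erbb2 (0.10, SE 0.07), Erbb3 (−0.25, SE 0.25), Egfr (−0.05, SE 0.14) and Areg (0.04, SE 0.97) did not pass either. The edgeR fit called 0 of the 9 genes, with 2 at an unadjusted p under 0.05 (13.5% of all genes), and DESeq2 and limma-voom also called 0, while 0.0872% of all genes were called and 0.872% passed by edgeR. The groups did not overlap for Ereg, Hbegf, Erbb2 and Errfi1, which were higher, and Erbb3, which was lower, and such separation held for 29.9% of all genes tested. The 12-library fit shares the spread of the control FFSS libraries. In an edgeR fit of the 6 DKO libraries alone, Ereg (0.89, adjusted p = 9.47e-05), Hbegf (0.43, adjusted p = 0.0260) and Errfi1 (0.37, adjusted p = 7.6e-06) passed the adjusted p without reaching 2-fold, as 11.2% of all genes in that fit passed at any fold. With the share of reads outside genes as a covariate Ereg was at 0.43 (adjusted p = 0.189, edgeR), Hbegf at 0.074 (adjusted p = 0.901, edgeR) and Errfi1 at 0.23 (adjusted p = 0.0334, edgeR), while 9.95% of all genes passed.

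**Figure D2:**
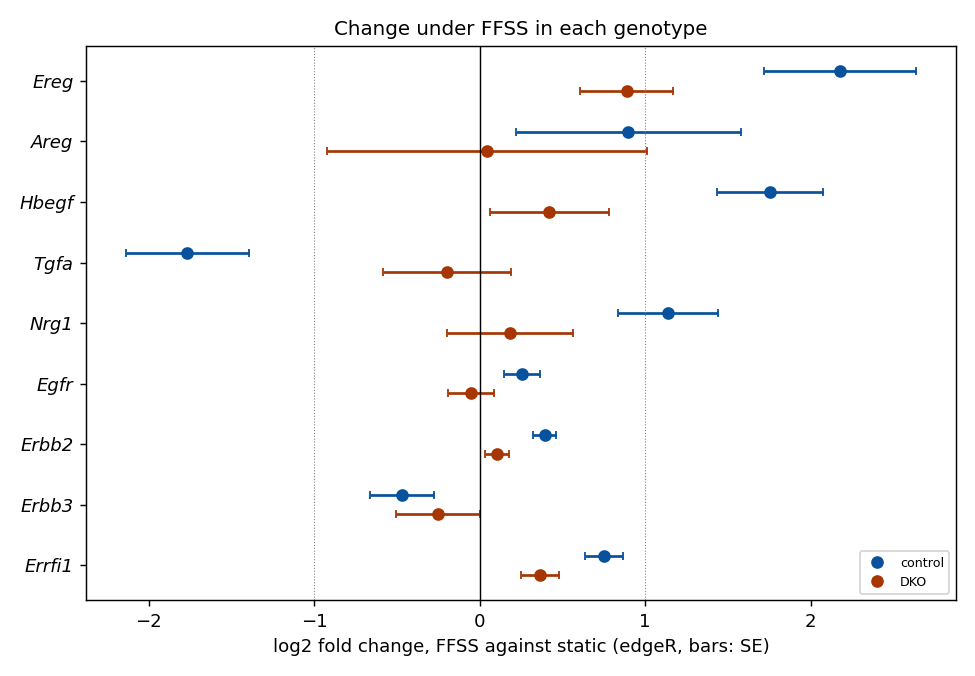
Log2 fold change with FFSS (horizontal axis) of the 9 tested genes (vertical axis) in control and in DKO cells, as points with bars of 1 standard error from the edgeR fit. Ereg lay at 2.18 in control and 0.89 in DKO cells, and Tgfa at −1.77 and −0.20.

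Whether FFSS acted differently in the 2 genotypes was asked of the interaction, in which the effect in control cells is taken from that in DKO cells. This difference holds the FFSS effect of control cells, on which the choice of genes is taken to rest, so it is described without p-values. It was −1.29 for Ereg (SE 0.55), −1.33 for Hbegf (SE 0.48), 1.57 for Tgfa (SE 0.53), −0.96 for Nrg1 (SE 0.48), −0.29 for Erbb2 (SE 0.10) and −0.39 for Errfi1 (SE 0.16). Of the 9 genes edgeR called 0, with 5 at an unadjusted p under 0.05, while it called 0.651% of all genes, passed 3.97% and had 23.8% at an unadjusted p under 0.05. DESeq2 called 2 (Hbegf and Tgfa) against 1.17% of all genes, and limma-voom 1 (Tgfa) against 1.13%. As for FFSS in control cells, nothing is read from these counts or those that follow. The outcome turned on 1 library. Without control FFSS replicate 1 edgeR called 4 genes, Ereg at −1.69, Hbegf at −1.66, Nrg1 at −1.28 and Tgfa at 2.30, and passed Erbb2 at −0.29 and Errfi1 at −0.54, while 7.6% of all genes were then called and 37.6% passed. With the share of reads outside genes as a covariate Tgfa passed at 0.91 without reaching 2-fold, and the others were at −0.19 for Ereg, −0.55 for Hbegf, −0.11 for Nrg1, −0.26 for Erbb2 and −0.10 for Errfi1, while 5.86% of all genes passed.

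Between static cells, Ereg was the one of the 9 tested genes that was called higher in DKO than in control cells. It rose by 3.12 on the log2 scale (SE 0.42, adjusted p = 2.6e-05, edgeR), from 0.368 ± 0.108 to 3.25 ± 0.367 CPM (SD, n = 3). Lower were Egfr, with a log2 difference of −1.86 (SE 0.12, adjusted p = 2.45e-08), Tgfa with −1.85 (SE 0.37, adjusted p = 0.00232), Nrg1 with −1.69 (SE 0.35, adjusted p = 0.00196) and Erbb3 with −1.30 (SE 0.21, adjusted p = 0.000141), all by edgeR. These 5 of 9 genes were called, against 15.3% of all genes tested (7.98% higher and 7.3% lower), and Errfi1 passed without reaching 2-fold (−0.77, SE 0.11, adjusted p = 8.81e-05, edgeR). Of all genes, 54.2% passed at any fold. Hbegf differed by −0.43 (SE 0.36, adjusted p = 0.334, edgeR) although its groups did not overlap, and it passed in a fit of the 6 static libraries alone (−0.43, adjusted p = 0.00287, edgeR), as did 62.7% of all genes at any fold. Groups did not overlap for 7 of the 9 genes, all but Areg and Erbb2, and for 69% of all genes. Erbb2 differed by 0.04 (SE 0.07, adjusted p = 0.688, edgeR), with a 95% interval of −0.11 to 0.19. With the share of reads outside genes as a covariate 7 were called, with Hbegf (−1.07, adjusted p = 0.00620, edgeR) and Errfi1 (−1.02) added, Tgfa at −1.07, Ereg at 2.28 and Nrg1 at −2.36, against 2508 of the 14904 genes tested.

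Under FFSS the DKO cells again had more Ereg, by a log2 difference of 1.83 (SE 0.30, adjusted p = 0.000151, edgeR). Lower were Nrg1, with a log2 difference of −2.65 (SE 0.34, adjusted p = 7.19e-05), Egfr with −2.17 (SE 0.12, adjusted p = 5.76e-09), Hbegf with −1.77 (SE 0.32, adjusted p = 0.000781), Errfi1 with −1.16 (SE 0.11, adjusted p = 2.33e-06) and Erbb3 with −1.08 (SE 0.23, adjusted p = 0.00108), all by edgeR. The edgeR fit called these 6 of 9 genes, and 17.2% of all genes (8.25% higher and 8.96% lower). Erbb2 passed without reaching 2-fold (−0.25, SE 0.07, adjusted p = 0.00733, edgeR), and 56.6% of all genes passed. Groups did not overlap for 7 of the 9 genes, all but Areg and Tgfa, and for 58.4% of all genes. Tgfa differed by −0.28 (SE 0.39, adjusted p = 0.568, edgeR), and without control FFSS replicate 1 this turned to 0.45 (adjusted p = 0.000443, edgeR), with Tgfa higher in DKO cells. Without that library Areg was also called (−1.82, adjusted p = 0.0218, edgeR), although its DKO libraries were at or under the floor of 3 counts. Erbb3 was then at −0.92 and no longer past 2-fold, and 20.1% of all genes were called. Both genotype comparisons share control libraries with the FFSS comparison taken as the basis of the choice. They may also have been among the results known, so their p-values are no independent evidence.

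For Btc, the ratio of summed counts in control to DKO cells was 20.2 in static libraries (95% interval 7.62 to 76.0, exact conditional, 85 against 4 counts, relative to TMM-scaled library totals) and 21.1 under FFSS (8.78 to 66.04, 120 against 5 counts). The intervals cover counting error only. All 6 DKO libraries were at or under the floor, so no fitted fold change is given.

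**Figure D3:**
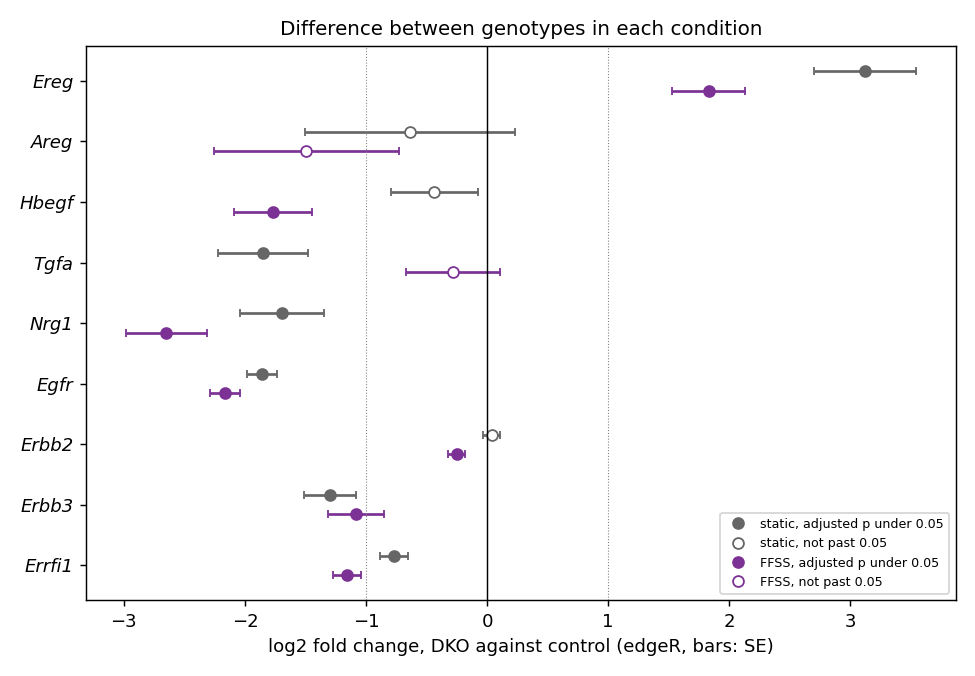
Log2 fold change of DKO against control cells (horizontal axis) of the 9 tested genes (vertical axis) in static and in FFSS libraries, with bars of 1 standard error, and filled points for an edgeR adjusted p under 0.05. Ereg was higher in both conditions (3.12 and 1.83), and Egfr was lower in both (−1.86 and −2.17).

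Beside these genotype differences, markers of other cell types were measured. Summed epithelial markers, 8 genes of which Krt14 gave nearly all counts, were at 23.4 to 25.3 CPM in control static and 4.99 to 6.49 CPM in DKO static libraries, although Epcam was at 0 and at 0.274 to 0.389 CPM. Summed chondrocyte markers, 6 genes, were at 79.9 to 103 CPM, led by Sox9, and 1833 to 2321 CPM, led by Col2a1, in the same groups. Summed haematopoietic markers, 7 genes led by Cd68, were at 24.1 to 28.5 CPM and 2.91 to 3.29 CPM, although Csf1r was at 0.260 to 0.423 and 0.605 to 0.833 CPM, with Cd3e at 0 counts. Summed glial and Schwann markers, 6 genes, which mark cells that depend on neuregulin signalling, were at 2.91 to 3.47 CPM and 1.92 to 3.17 CPM, and Foxd3 was at 0 counts. Under FFSS the sums in control and DKO libraries were 15.97 to 20.8 and 5.65 to 5.83 CPM for epithelial, 52.6 to 82.3 and 1590 to 1887 CPM for chondrocyte, 15.6 to 23.5 and 3.04 to 3.51 CPM for haematopoietic, and 2.92 to 3.29 and 2.63 to 3.87 CPM for glial and Schwann markers. For FFSS in control cells edgeR called 5.93% of all genes. Called lower were Phospho1 (−1.59) and Irx5 (−1.14) of the osteocyte list, and higher Cdh1 (1.16) of the epithelial and Csf1r (1.43) of the haematopoietic list. Leaving out control FFSS replicate 1 put these at −2.42, −1.70, 1.36 and 1.62. In that fit 3 osteocyte and 1 chondrocyte marker were called lower, while 11.3% of all genes were called. Of the same lists, Krt14 was lower at 14.6 to 19.9 CPM, against 23.1 to 24.4 CPM in control static libraries. Cd68 was also lower (14.2 to 22.8 against 23.6 to 28.2 CPM), and Pdpn was higher (40.1 to 51.3 against 27.6 to 29.3 CPM). The part of these lists in the EGF family differences was not tested.

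The make-up of the ligand pool was summed per length over the 6 ligand genes. The pool was 31.7 ± 1.74 CPM per kb in control static, 30.5 ± 6.92 in control FFSS, 11.02 ± 0.743 in DKO cells without flow and 11.9 ± 0.268 in DKO FFSS cells (SD, n = 3 each). Tgfa made up 70.3% ± 0.912 of the pool in control static cells, and 50.2%, 9.74% and 14.0% in control FFSS replicates 1, 2 and 3. Hbegf and Nrg1 made up 9.23% ± 0.830 and 18.1% ± 1.31 in control static cells, and 20.4%, 39.4% and 33.0% and 26.1%, 46.0% and 47.9% in control FFSS replicates 1, 2 and 3. In DKO cells Tgfa held 55.9% ± 4.96 of the static and 45.4% ± 1.57 of the FFSS pool, and Ereg held 7.16% ± 0.994 and 12.3% ± 0.474, against 0.278% ± 0.0670 in control static cells. The share of Ereg in control FFSS replicates 1, 2 and 3 was 0.582%, 1.52% and 1.68%. Among the 3 receptor genes Erbb2 held 84.6% ± 1.51 of the sum per length in control static and 94.9% ± 0.302 in DKO static cells, while Egfr held 12.1% ± 1.09 and 3.63% ± 0.171. Shares within a pool are tied to each other, since a fall in 1 gene raises the share of the rest.

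**Figure D4:**
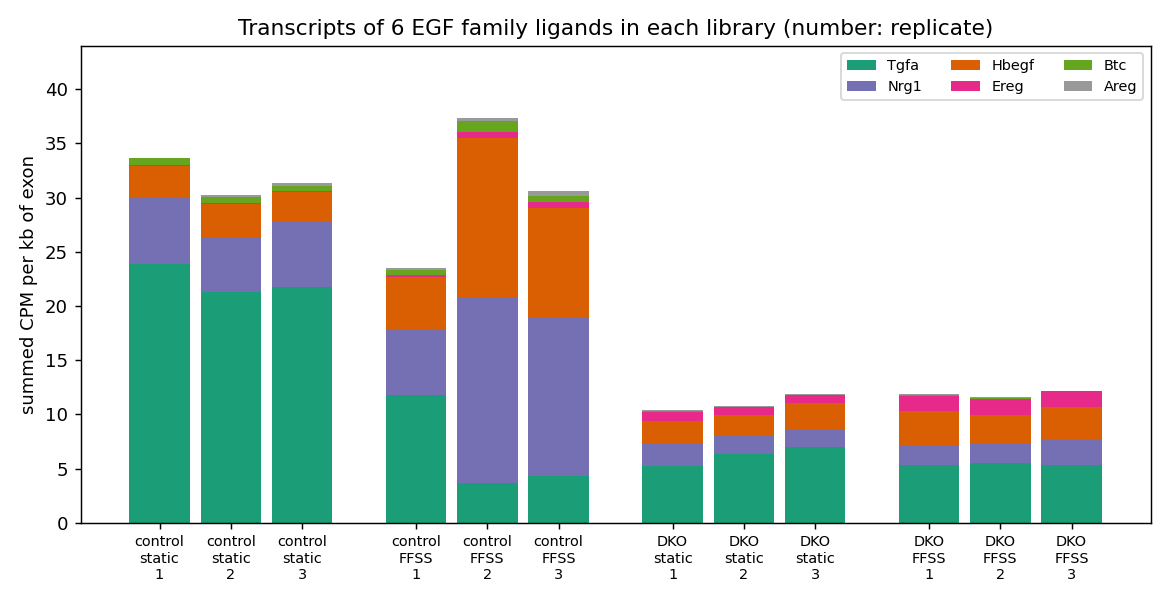
Level of the 6 ligand genes in CPM per kb of exon (vertical axis, starting at 0), stacked in a bar for each library. The horizontal axis holds 3 libraries for each of the 4 groups. Tgfa took 70.3% of the bar on average in control static cells and 9.74% in control FFSS replicate 2.

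Other genes of the pathway were followed in lists, which were also chosen with earlier results known. Of all genes tested, 17.7% passed higher and 18.1% lower for FFSS in control cells, 0.376% and 0.497% for FFSS in DKO cells, and 2.28% and 1.68% for the interaction. Between the genotypes 27% passed higher and 27.2% lower in static libraries, and 27% and 29.6% under FFSS. Past 2-fold as well were 5.93% of all genes for FFSS in control cells, 0.0872% in DKO cells and 0.651% for the interaction. Between the genotypes these shares were 15.3% in static libraries and 17.2% under FFSS. Without control FFSS replicate 1 they were 11.3% for FFSS in control cells, 7.6% for the interaction and 20.1% between the genotypes under FFSS. Of the 6 further ligand and receptor genes, Egf and Nrg4 could be tested, and Epgn, Nrg2, Nrg3 and Erbb4 were too low. Egf, the ligand that gives the family its name, rose by 1.02 on the log2 scale in DKO static cells (SE 0.33, edgeR), from 0.423 to 0.677 CPM in control static libraries to 0.878 to 1.56 CPM. Of 21 genes of ligand shedding and receptor turnover, 4 passed higher and 5 lower for FFSS in control cells with 0 past 2-fold by edgeR, and 0 passed in DKO cells. In DKO against control static cells 7 passed higher and 5 lower, and past 2-fold were Adam12, a metalloprotease that can shed HB-EGF, at 1.88 (SE 0.30), and Spint1, a membrane inhibitor of serine proteases, which was lower. Spint1 was at 0.104 to 0.421 CPM in control static libraries and at most at 0.111 CPM, under the floor, in any DKO library, so no fold is given for it. Under FFSS 8 passed higher and 6 lower, with Adam12 at 2.66 (SE 0.32), the rhomboid protease gene Rhbdl2 at 1.47 (SE 0.12) and Spint1 lower past 2-fold. Without control FFSS replicate 1, 9 passed higher and 7 lower for FFSS in control cells (55% of all genes), with 1 lower past 2-fold, and 6 and 8 for DKO against control cells under FFSS (65% of all genes), with 3 past 2-fold each way.

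Of 25 genes of proximal signalling and the ERK cascade, 4 passed higher and 5 lower for FFSS in control cells with 0 past 2-fold by edgeR, and 1 passed each way in DKO cells. In DKO against control static cells 9 passed higher and 8 lower, and past 2-fold were the adaptor genes Gab1 (1.39, SE 0.09) and Shc1 (1.04, SE 0.07) and the PI3-kinase subunit gene Pik3ca (1.09, SE 0.07). Under FFSS 8 passed higher and 7 lower, with Gab1 (1.53, SE 0.10) and Pik3ca (1.09, SE 0.07) past 2-fold. Of all genes, 15.3% were called in static and 17.2% in FFSS libraries. Without control FFSS replicate 1, 6 passed higher and 8 lower for FFSS in control cells (55% of all genes) with 0 past 2-fold by edgeR. Also without it, 9 passed each way for DKO against control cells under FFSS (65% of all genes). Of these, 3 higher and 1 lower were past 2-fold (20.1% of all genes).

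Of 22 genes of ERK feedback and immediate ERK targets, 13 passed higher and 4 lower for FFSS in control cells, with a median log2 difference of 0.37 against 0.01 over all genes tested. Past 2-fold, as for 5.93% of all genes, were the chromatin factor gene Hmga2 (1.55), the ETS factor gene Etv4 (1.25) and Dusp6, the phosphatase of ERK (1.21). Without control FFSS replicate 1 these were at 1.85, 1.44 and 1.44, and 16 of the list passed higher and 5 lower, while 55% of all genes passed. In DKO cells 3 passed higher and 0 lower, with 0 past 2-fold by edgeR and a median of 0.30 against −0.01. The interaction passed for 1 gene higher and 3 lower, with 0 past 2-fold by edgeR, and without control FFSS replicate 1 for 5 higher and 9 lower, with 2 lower past 2-fold, where 37.6% of all genes passed and 7.6% were called. In DKO against control static cells 6 passed higher and 9 lower, led by the AP-1 subunit gene Fosl1 (−2.13, SE 0.22), the phosphatase gene Dusp4 (−1.35, SE 0.19) and the feedback inhibitor gene Spry4 (1.26, SE 0.15). Under FFSS 4 passed higher and 13 lower, led by Fosl1 (−2.13, SE 0.21), Dusp4 (−1.99, SE 0.19) and Phlda1 (1.57, SE 0.11). Leaving out control FFSS replicate 1 gave 4 higher and 14 lower, with 2 higher and 4 lower past 2-fold. Of all genes, 65% then passed and 20.1% were called.

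The genes with the pattern most like each called ligand gene were ranked by Pearson's r of log2 CPM over the 12 libraries, among 11409 genes. For Ereg they were Irf5 (r = 0.984), Ap4b1 (0.984) and Bcl2l1 (0.983). For Hbegf they were Slc25a37 (0.986), Tagln (0.984) and Ccl2 (0.984). For Tgfa they were Klf4 (0.991), Pcbp2 (0.987) and Fam180a (0.986), and for Nrg1 Cav1 (0.991), Plscr2 (0.990) and Ankrd1 (0.990). The points share groups and depth, so the values describe likeness in these libraries and carry no test.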

How the data were processed

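Total RNA was extracted for 12 libraries, from which the authors prepared mRNA and sequenced short single-end reads. They were aligned with STAR to mm9 with Ensembl annotation and counted with HTSeq, so the deposited values are raw counts per gene, neither normalised nor filtered. The counting is described as not stranded, so reads shared by overlapping genes were not counted (for Nrg1 and Erbb2, 100 and 9 exon bases are shared with another gene). Symbols, positions and exon lengths were taken from an mm9 annotation. The 10 genes and all pathway lists were chosen with earlier results of these data known, and every gene of the family is named, with at most 3 called genes of each further list and contrast and the 3 genes most like each ligand gene called for FFSS in control cells.

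The whole table was fitted with edgeR 4.0.16 (R 4.3.3), by robust quasi-likelihood with TMM over 12 libraries in 4 groups. Genes with 0 counts in 2 or more libraries were removed, leaving 14904 of the 24360 genes with any count. A gene passed at a Benjamini-Hochberg adjusted p under 0.05 (two-sided) and was called when it also changed more than 2-fold. CPM used TMM-scaled totals, and log2 CPM a prior count of 2. Totals of 17.6 to 19.2 M counts set the precision. The intervals for Btc and the floor of 3 counts cover counting error only, since reads carried no molecular identifiers. The interval for Erbb2 came from the edgeR fit, so it also covers the spread between libraries. Results were recomputed with RLE factors, with totals and no factors, with edgeR's filterByExpr, no filter, the 6 libraries of a comparison, DESeq2 1.42.0, limma-voom (limma 3.58.1), the replicate number as a block, the share of reads outside genes as a covariate, no fold limit, and each library left out in turn. Lines that name no gene were left out of totals and tests, and reads outside genes amounted to 5.10% to 10.04% of the counts.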

Additional observations from a re-analysis of the deposited data

How the results depend on the processing

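For FFSS in control cells the count of 4 called genes fell to 2 (Ereg and Hbegf) in a fit of the 6 libraries alone, where 438 of 16166 genes were called, and to 0 with the share of reads outside genes in the model, where 198 of 14904 were, against 884 in the 12-library fit, and lay between 3 and 4 with 1 library left out, Nrg1 being lost without control static replicate 2 or control FFSS replicate 2 or 3. The interaction count of 0 became 2 with DESeq2 (1.17% of all genes) and 1 with limma-voom (1.13%), and ranged from 0 to 4 with 1 library left out, 4 being the value without control FFSS replicate 1. For DKO against control cells the counts ranged from 5 to 6 in static and from 6 to 7 in FFSS libraries when 1 library was left out, with 7 and 6 under the share of reads outside genes. With filterByExpr, no filter or the 6 libraries alone they were 6 and 7, the added gene being Btc, lower in DKO cells, which the removal of genes with 0 counts had kept out. For FFSS in DKO cells the count was 0 under every setting. Blocking on the replicate number left 4 genes called for FFSS in control cells, 0 in DKO cells and 0 for the interaction, and 5 and 6 for DKO against control cells in static and FFSS libraries. The block changed none of these 5 counts. The deviations of same-numbered libraries correlated by 0.00226 on average (from −0.0603 to 0.0631), and those of different number by −0.00116. The labels do not say whether same-numbered libraries were handled together, and these correlations cannot settle it.

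With the share of reads outside genes in the model the log2 difference turned for Areg (−0.42) and Nrg1 (−0.072) under FFSS in control cells, for Areg (−0.36), Tgfa (0.23) and Nrg1 (−0.19) under FFSS in DKO cells and for Areg in the interaction (0.069). With library totals alone Erbb2 turned to −0.046, and with limma-voom Areg turned to 0.068, both in DKO against control static cells. With 1 library left out, Areg ranged from −0.38 to 0.43 and Egfr from −0.19 to 0.056 for FFSS in DKO cells, Areg ranged from −1.20 to 0.45 in DKO against control static cells, and Tgfa ranged from −0.57 to 0.45 in DKO against control FFSS cells. None of these reversed values was of a gene called in that comparison, except that of Nrg1. The causes were not tested. Counts at or under the floor limit what can be said of Areg and, in DKO cells, of Btc and Spint1.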
